A study of Mus musculus with 6 samples.

Results

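The mouse Zfp genes are named for the zinc finger protein they encode and a running number, and 336 protein-coding gene models with such a name and nothing after the number, on chromosomes 1 to 19, were examined out of 21409 protein-coding genes on those chromosomes. The gene models were those of GENCODE vM1 on the mm9 build, and Zfp42 was left aside. The 336 models carried 332 different symbols, because Zfp664, Zfp319, Zfp708 and Zfp738 each had 2 gene identifiers. The cells were primary mouse mesangial cells, contractile cells that hold the capillary loops of the glomerulus, between passages 3 and 6 and in medium with 25.5 mM glucose. Their methylated DNA had been immunoprecipitated and sequenced (MeDIP-Seq) in 3 control samples and in 3 that received TGF-β1, at 10 ng/ml over 72 h. The sources used here give no strain, sex or age, and nothing says that the samples of a group came from separate animals, so the tests below measure only the spread between these samples. Peak lists of DNA methylation carry no expression, and the cell type could not be checked against marker genes.

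Most Zfp proteins bind DNA through a row of C2H2 zinc fingers, short loops that each hold a zinc ion and touch a few bases. Many also carry a KRAB box, which recruits the scaffold protein TRIM28, and through it the histone methyltransferase SETDB1, to silence the bound site. The genes stand in tandem clusters that arose by duplication, and the fingers are typically encoded together in the last coding exon. Body methylation and H3K9 trimethylation over the finger exons are well known for this family, and gene promoters with many CpGs are in general little methylated.

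In these gene models a C2H2 finger pattern was found in 320 of the 336 members, and in 251 members every finger lay in the last coding exon. That exon had a median length of 1286 bp, against 176 bp in the 21073 other protein-coding genes, and it encoded a median of 9 fingers. The sequence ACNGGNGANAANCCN, a degenerate spelling of the linker that joins neighbouring fingers, was found on either strand in 65.5% of Zfp last coding exons and in 0.873% of those of other genes. A KRAB box pattern matched in 120 members, and 153 members lay in 24 clusters, defined as at least 3 members with gaps of at most 200 kb. The remaining 183 were single genes. Chromosome 7 held 86 members, chromosome 17 held 39 and chromosome 13 held 33.

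The stretches of 180 bases below, read from the mm9 genome on the coding strand, show what the peaks covered. CpG dinucleotides are in capitals. Those of Zfp1, Zfp7, Zfp84, Zfp57 and Zfp691 are centred on the summit of a methylation peak in the last coding exon, that of the Zfp7 promoter on a peak upstream of the transcription start, and those of Zfp458 and Zfp229 on the middle of a last coding exon that held no peak in any sample.
Zfp1 last coding exon, chr8:114193763-114193942, plus strand: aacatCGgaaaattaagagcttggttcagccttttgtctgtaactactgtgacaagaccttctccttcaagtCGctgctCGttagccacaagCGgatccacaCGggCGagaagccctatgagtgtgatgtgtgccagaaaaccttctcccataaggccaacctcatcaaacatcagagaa
Zfp7 last coding exon, chr15:76720772-76720951, plus strand: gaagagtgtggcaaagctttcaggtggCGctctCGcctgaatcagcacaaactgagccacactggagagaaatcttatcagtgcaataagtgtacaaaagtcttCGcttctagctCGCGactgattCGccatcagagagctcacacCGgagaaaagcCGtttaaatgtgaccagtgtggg
Zfp84 last coding exon, chr7:30562018-30562197, plus strand: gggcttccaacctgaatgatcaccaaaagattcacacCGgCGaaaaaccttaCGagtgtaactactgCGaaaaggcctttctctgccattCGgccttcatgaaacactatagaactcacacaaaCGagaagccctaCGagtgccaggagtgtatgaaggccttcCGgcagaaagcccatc
Zfp57 last coding exon, chr17:37146615-37146794, plus strand: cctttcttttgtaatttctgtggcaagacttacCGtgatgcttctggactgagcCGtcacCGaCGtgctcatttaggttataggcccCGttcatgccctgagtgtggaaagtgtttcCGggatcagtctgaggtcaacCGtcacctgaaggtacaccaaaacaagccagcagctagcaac
Zfp691 last coding exon, chr4:118843326-118843505, minus strand: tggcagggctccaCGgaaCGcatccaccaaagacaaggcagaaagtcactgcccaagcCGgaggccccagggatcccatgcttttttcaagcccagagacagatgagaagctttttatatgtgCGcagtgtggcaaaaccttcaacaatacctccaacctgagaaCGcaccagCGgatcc
Zfp7 promoter, chr15:76709065-76709244, plus strand: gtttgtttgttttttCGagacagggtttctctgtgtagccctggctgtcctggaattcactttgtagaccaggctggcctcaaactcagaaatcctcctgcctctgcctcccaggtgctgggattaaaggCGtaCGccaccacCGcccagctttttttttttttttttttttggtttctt
Zfp458 last coding exon, chr13:67357977-67358156, minus strand: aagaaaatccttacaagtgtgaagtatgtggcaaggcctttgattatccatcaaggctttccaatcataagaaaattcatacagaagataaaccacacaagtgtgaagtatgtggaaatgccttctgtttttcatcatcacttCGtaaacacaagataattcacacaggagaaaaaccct
Zfp229 last coding exon, chr17:21882853-21883032, plus strand: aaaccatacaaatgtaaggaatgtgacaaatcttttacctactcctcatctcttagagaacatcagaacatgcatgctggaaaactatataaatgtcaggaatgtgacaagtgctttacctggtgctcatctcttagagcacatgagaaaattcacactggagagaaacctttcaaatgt

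The last coding exon stretches of Zfp1, Zfp7, Zfp84, Zfp57 and Zfp691 held 6, 8, 8, 7 and 6 CpGs, and the linker sequence was matched once in each of Zfp1, Zfp7 and Zfp84. That of the Zfp7 promoter held 4 CpGs and 0 linker matches. The stretch of Zfp458 held 1 CpG and that of Zfp229 held 0, although each also matched the linker once. Zfp458 and Zfp229 were chosen as the members with the longest last coding exon among those without any peak in the clusters on chromosomes 13 and 17 described below.

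Peaks at the Zfp genes were counted by their summit, in the gene or within 2 kb of either side. Peaks of the 6 samples that overlapped by 1 bp were joined into 170444 regions, of which 1199 lay at Zfp genes. At least 1 region was found at 280 members and none at 56 members, whose median gene length of 8.28 kb was below the 15.7 kb of members with a region. Of the 1199 regions, 286 (23.9%) were called in all 6 samples and 305 (25.4%) in a single sample, close to the 24.5% and 27.3% among all regions. The long genes Zfp407 with 70 regions, Zfp536 with 50, Zfp827 with 40, Zfp521 with 34 and Zfp618 with 30 (Zfp704 also had 30) led the count. These genes span 462, 451, 165, 286 and 174 kb, and 66, 47, 37, 31 and 26 of their regions were intronic. Of these genes only Zfp536 and Zfp618 had a peak in the last coding exon, each in 4 samples. At Zfp827 and Zfp521 that exon had only 13 and 30 bp and encoded no finger, so it could hardly hold a summit. Because neighbouring members share flanks, 17 regions were within reach of 2 members.

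The total of uniquely mapped reads without duplicates, as the peak lists state it, was 9407103 to 11494356 without and 12634300 to 13291419 with TGF-β1, so every TGF-β1 sample was deeper than every control sample. Between 81473 and 105520 peaks were called per sample. Control replicate 1 had the fewest peaks and the lowest median GC content of its peaks, 47.7% against 47.9% to 48.8% in the other samples.

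Methylation peaks at the Zfp genes lay in the last coding exon far more often than at the promoter, taken as 1 kb upstream to 500 bp downstream of the transcription start. A last coding exon peak was called in 56, 79 and 89 members in control replicates 1, 2 and 3, and in 87, 88 and 77 members in TGF-β1 replicates 1, 2 and 3. A promoter peak was called in 11, 14 and 14 members without and in 14, 9 and 14 with TGF-β1. As shares of the 336 members, these came to 23.6% ± 3.71 (SD, n = 6) for the last coding exon and 3.77% ± 0.643 for the promoter. The difference of 19.8 percentage points was present in 6 of 6 samples (13.4 to 23.5; exact two-sided sign-flip permutation test over samples, p = 0.03125, the smallest it can give; adjusted over 5 differences 0.03125). Control replicate 1 was lowest, and without it the difference was 21.1 points. Counted per 100 kb of each element, the peaks still stood at 21.7 in last coding exons and 2.52 in promoters. The 6 samples share a genome, so this test and the sign-flip tests below cover the spread between libraries and not between genes.

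**Figure D1:**
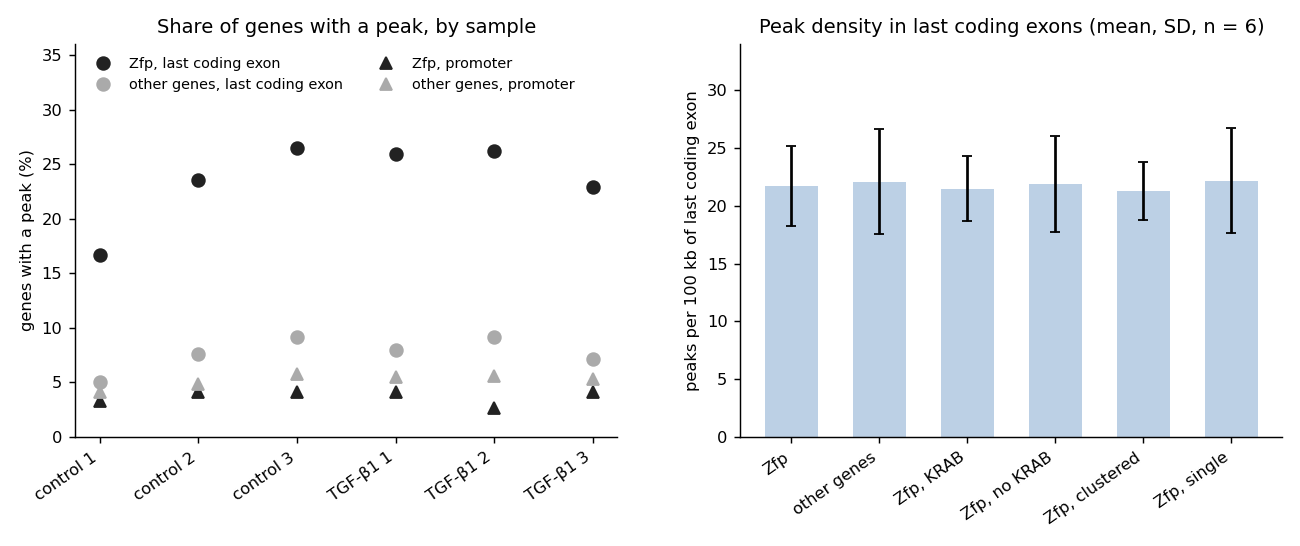
Left, share of genes with a peak (%) in each of the 6 samples, for Zfp genes (black) and other protein-coding genes (grey), in the last coding exon (circles) and the promoter (triangles). Right, peaks per 100 kb of last coding exon, as mean and SD over 6 samples. The Zfp circles sit at 16.7% to 26.5%, above all other points, while the densities on the right lie between 21.3 and 22.2.

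Set beside other protein-coding genes, Zfp genes had more last coding exon peaks per gene, 23.6% against 7.70% ± 1.54 (difference 15.9 points, higher in 6 of 6 samples, exact sign-flip p = 0.03125, adjusted 0.03125). This difference did not hold per base. The density was 21.7 ± 3.47 peaks per 100 kb in Zfp last coding exons and 22.1 ± 4.51 in those of other genes, a difference of -0.372 (exact sign-flip p = 0.656), and among last coding exons of at least 1 kb the Zfp share was 31.4% against 34.6% in 1324 other genes with fewer than 5 fingers. Promoter peaks were rarer at Zfp genes, 3.77% against 5.21% ± 0.630, by 1.44 points in 6 of 6 samples (exact sign-flip p = 0.03125, adjusted 0.03125), but the difference was -0.0904 points when the promoter was taken as the 2 kb upstream and 0.249 points when the starts of all transcripts were used. The median CpG density of the promoters was 3.40 per 100 bp in Zfp genes and 3.33 in other genes.

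Of the 336 members, 107 had a peak in the last coding exon in at least 1 sample and none at the promoter, 16 had only a promoter peak, 7 had both and 206 had neither. The last coding exon peak was called in all 6 samples in 43 members and the promoter peak in 3. Of the 21073 other protein-coding genes, 621 had the last coding exon peak in all 6 samples and 390 the promoter peak. In at least 1 sample, 13.6% of the other genes had a last coding exon peak and 9.83% a promoter peak. Their last coding exons were shorter, with a median of 176 against 1286 bp. Regions in the last coding exon were called in all 6 samples in 44 of 129 cases (34.1%), against 182 of 795 in introns (22.9%) and 3 of 23 at promoters (13.0%). No test was run on these counts.

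The strongest last coding exon region was at Zfp1, chr8:114193613-114194440 (ENSMUSG00000055835.8), whose summit was covered by 69, 59 and 79 extended reads (the pileup) in control replicates 1 to 3 and by 84, 82 and 95 in TGF-β1 replicates 1 to 3. Zfp791 followed with 59, 65 and 61 without and 84, 77 and 74 after TGF-β1. In these 2 regions the TGF-β1 pileups were all above the control pileups, as was the number of reads, and after centring each sample on its median the log2 differences were 0.12 ± 0.13 (SE) and 0.12 ± 0.14 (limma adjusted p = 0.999 for each). Zfp7 had 65, 53 and 62 in the control and 61, 61 and 72 in the TGF-β1 samples, and Zfp180 had 52, 61 and 71 against 74, 52 and 60. The groups overlapped at Zfp7 and Zfp180, and they overlapped as well at Zfp612, Zfp84, Zfp869 and Zfp799, whose mean pileups lay between 49.8 and 51.2. Over the 44 last coding exon regions called in all 6 samples the median of the mean pileup was 32.5, against 26.5 for all regions called in all 6 samples.

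The 3 promoter regions called in every sample were weaker. Zfp939, chr7:46728222-46728732, had pileups of 23, 16 and 27 in the control and 23, 23 and 29 in the TGF-β1 samples. Zfp7, chr15:76708807-76709398, had 23, 18 and 26 against 21, 27 and 25, and Zfp641, chr15:98126847-98127539, had 18, 12 and 23 against 20, 20 and 28. All 3 groups of values overlapped between the treatments, and Zfp7 was the only member with both its promoter and its last coding exon called in all 6 samples. Of the 49-base words of the Zfp7 promoter, 82.9% occurred only once in the genome. Whether repeated sequence lay under the promoter peaks was not examined.

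**Figure D2:**
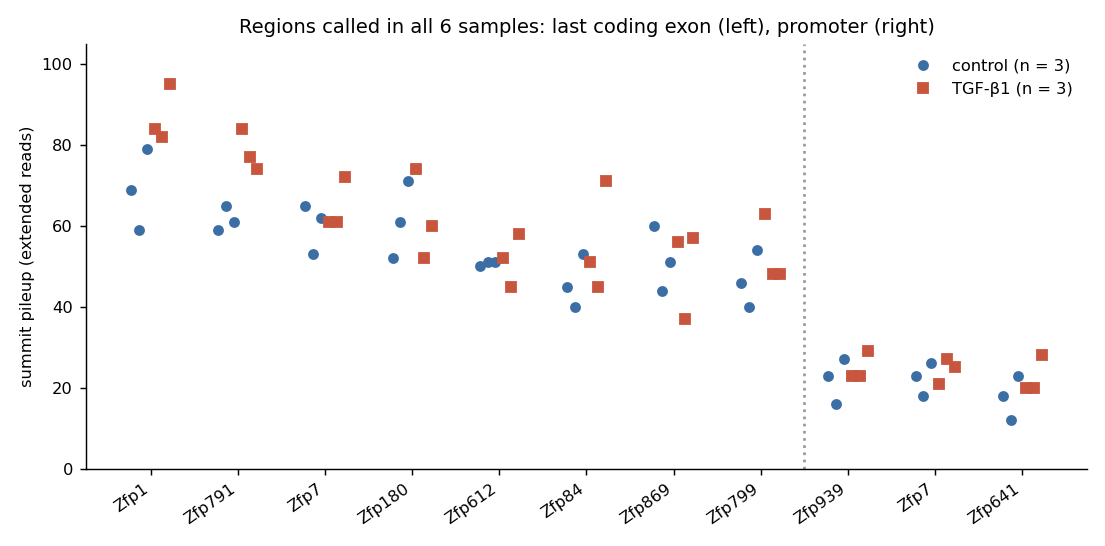
Summit pileup (extended reads) of the 8 strongest last coding exon regions and of the 3 promoter regions that were called in all 6 samples, with a point for each control (blue circles) and TGF-β1 (red squares) sample. The last coding exon regions lie between 37 and 95 and the promoter regions between 12 and 29.

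Around the transcription start, peaks of Zfp genes were sparse. Of all 1199 regions, 7 had their summit within 500 bp of the start of the representative transcript, against 71 between 1000 and 2000 bp from it. The second range covers more bases than the first, and the same count was not made for other genes. Promoters were also poor in peaks in the other protein-coding genes, at 3.68 per 100 kb against 22.1 in their last coding exons. The 23 promoter regions had a median summit position 633 bp upstream, 20 of them lay upstream of the start, and 9 were called in 5 or 6 samples. Of these 9, 8 lay 252 to 865 bp upstream, at Zfp2, Zfp87, Zfp7, Zfp641, Zfp654, Zfp324, Zfp575 and Zfp939, and the remaining region was 417 bp downstream at Zfp647. Members with a promoter peak had promoters with fewer CpGs, a median of 1.93 per 100 bp against 3.46 in those without, and by tertiles of promoter CpG density the share with a promoter peak was 6.25% ± 1.38 (SD, n = 6), 2.98% ± 0.461 and 2.08% ± 0.729 from the poorest to the richest.

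Within the last coding exon the summits lay towards the middle and 3′ part, with 15, 23, 29, 34 and 28 of 129 in successive stretches of 20% of the exon from its 5′ end. In members with fingers there, 102 of 120 summits (85.0%) were inside the finger array, which made up 69.1% of the bases of these exons. Among the 16 members in which no C2H2 pattern was found, 4 had a last coding exon peak, and it was called in all 6 samples in Zfp330 and in 5 in Zfp474.

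**Figure D3:**
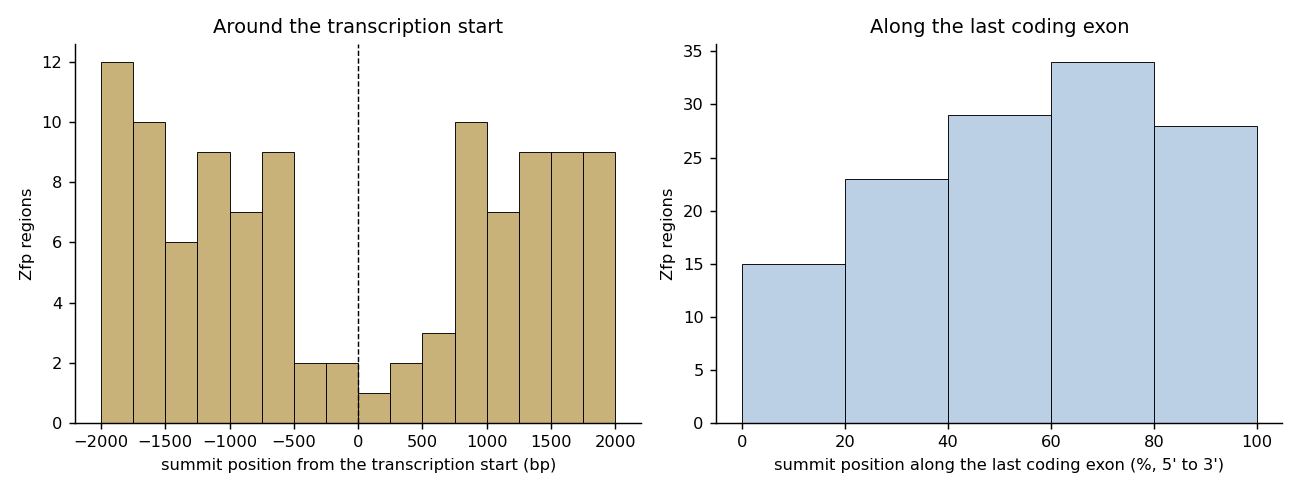
Number of Zfp regions by summit position, left from 2000 bp upstream to 2000 bp downstream of the transcription start in bins of 250 bp, right along the last coding exon in bins of 20% of its length. The bin just downstream of the start holds 1 region and that at the far upstream end 12, and the count along the exon goes from 15 in the bin at the 5′ end to 34 in the bin from 60% to 80%.

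Members whose last coding exon held few CpGs rarely had a peak there. Of the 85 members with under 1 CpG per 100 bp, 5 (5.88%) had a last coding exon peak in at least 1 sample and none had it in all 6. Of the 93 members with 1 to 2 CpGs per 100 bp, 32 (34.4%) had a peak, and of the 158 with 2 or more, 77 (48.7%). By tertiles of CpG density, the mean share per sample was 5.80% ± 1.57, 33.3% ± 3.51 and 31.7% ± 8.31 (SD, n = 6) from the poorest to the richest. These shares ignore exon length, whose medians were 1411, 1298 and 1058 bp. Per 100 kb of exon there were 4.38 ± 1.36, 29.5 ± 3.72 and 34.6 ± 8.04 peaks. The difference between the middle and the richest tertile was not tested. MeDIP recovers a fragment by its methylated cytosines, so a stretch with few CpGs gives little signal whatever its methylation, and a missing peak is not a measurement of unmethylated DNA. Reads had also to map uniquely. In 15 members fewer than 50% of the 49-base words of the last coding exon occurred only once in the genome, and none of these had a peak there, but the median over all members was 100%. Most of the 15 also had under 1 CpG per 100 bp, such as Zfp534 (0.219) and Zfp808 (0.435), while Zfp114 had 2.36. The part of mapping and that of CpG density were not tested apart.

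Among the clusters, those poorest in CpGs also held the fewest last coding exon peaks, while the richest, 7.1 at 5.54 CpGs per 100 bp, had them in 2 of 6 members. The largest, 13.1 on chr13:67139530-67927937, held 19 members, and none of them had a last coding exon peak in any sample. Its last coding exons had a median of 0.827 CpG per 100 bp and a median length of 1247 bp, and a median of 91.5% of their 49-base words were unique. In this cluster 7 members had no region at all, while Zfp87, Zfp953 and Zfp457 had a promoter peak in 5, 2 and 1 samples. Cluster 17.1, chr17:21520712-22593656, held 15 members, all with a KRAB box, and a median of 0.537 CpG per 100 bp. Only Zfp51 had a last coding exon peak there, in 2 samples, both treated with TGF-β1. Zfp52, a member of this cluster, is listed by the study with higher expression and lower methylation after TGF-β1. It had no last coding exon or promoter peak, and its 2 regions were intronic. In 5 samples 1 of them was called, with pileups of 22 and 29 in control replicates 2 and 3 and 22, 19 and 20 in the TGF-β1 samples. Neither region was called in all 6 samples, so neither was in the limma fit of regions called in all 6 samples.

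Cluster 7.7, chr7:30553571-30954746, was the reverse. Of its 14 members, 11 had a last coding exon peak, and in 6 of them (Zfp84, Zfp790, Zfp27, Zfp82, Zfp260 and Zfp382) it was called in all 6 samples. Its median CpG density was 2.80 per 100 bp, and none of its members had a promoter peak. The 3 members without a last coding exon peak were Zfp420, Zfp568 and Zfp566, at 1.60, 2.66 and 2.94 CpGs per 100 bp. The number of members called per sample was 7, 8 and 9 in the control and 9, 8 and 9 in the TGF-β1 samples. Cluster 17.2, chr17:32908181-33243148, had a last coding exon peak in 6 of 8 members, 5 of them in all 6 samples (Zfp871, Zfp799, Zfp870, Zfp952 and Zfp563), and cluster 7.5, chr7:24866943-25372660, in 6 of 12. Of the 24 clusters, 20 had at least 1 member with a last coding exon peak and 10 had at least 1 with a promoter peak.

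**Figure D4:**
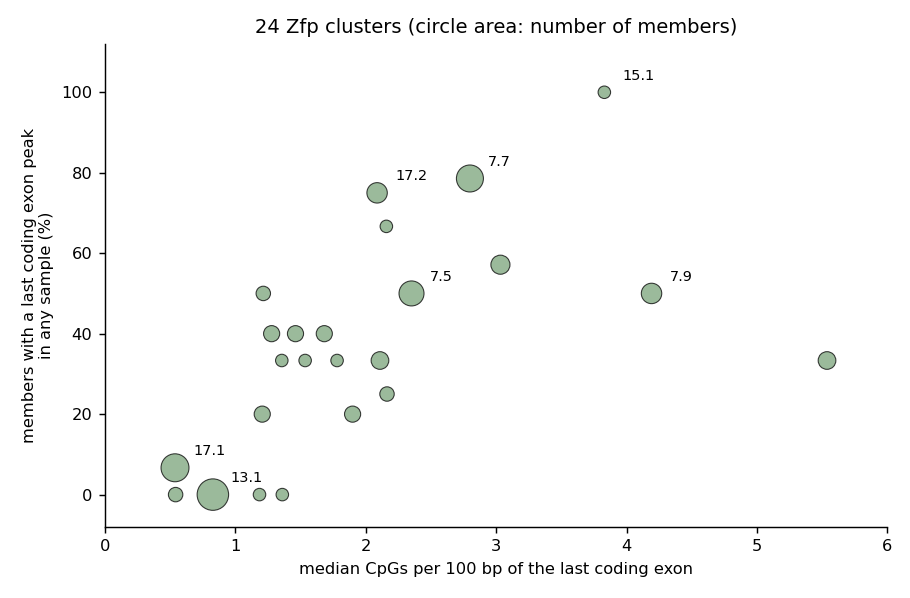
Each circle is 1 of the 24 Zfp clusters, by the median CpG density of its last coding exons (CpGs per 100 bp) and the share of its members with a last coding exon peak in any sample (%), with the circle area showing the number of members. Clusters 13.1 and 17.1 lie at the lower left at 0% and 6.67%, and cluster 7.7 at 78.6%.

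Last coding exon peaks were called in 26.1% ± 3.33 of clustered and in 21.5% ± 4.17 of single Zfp genes (difference 4.65 points, higher in 6 of 6 samples, exact sign-flip p = 0.03125, adjusted 0.03125). They were called in 27.9% ± 3.36 of members matching the KRAB pattern and in 21.2% ± 4.08 of those without a match (difference 6.70 points, 6 of 6 samples, exact sign-flip p = 0.03125, adjusted 0.03125). Neither difference held per base, since the densities were 21.3 and 22.2 peaks per 100 kb in clustered and single genes, and 21.5 and 21.9 with and without the KRAB match. With cluster gaps of at most 500 kb the first difference was 0.0504 points (exact sign-flip p = 0.969), and with a KRAB pattern starting with F or Y, chosen after seeing the data, the second was 2.56 points (exact sign-flip p = 0.0938). The pattern starting with F or Y matched 138 members, against 120 for the first, so members without a match may still carry a KRAB box. Members matching the first pattern had longer last coding exons, with a median of 1449 against 1053 bp. Promoter peaks were more frequent in clustered genes, 5.66% ± 1.29 against 2.19% ± 0.599 (difference 3.48 points, higher in 6 of 6 samples, exact sign-flip p = 0.03125, adjusted over 7 differences 0.0437). The median promoter CpG density was 2.80 per 100 bp in clustered and 4.06 in single genes.

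Zinc finger genes with 2 other kinds of name were higher still. The classes were taken by symbol only, and the Zfp members were not searched for BTB or SCAN domains. The last coding exon peak was called in 31.7% ± 5.17 of 31 Zbtb genes, which pair the fingers with a BTB domain, and in 40.7% ± 6.73 of 18 Zscan and Zkscan genes, which carry a SCAN domain. The Zfp share was lower by 8.11 and by 17.1 points in 6 of 6 samples (exact sign-flip p = 0.03125, adjusted 0.0437 for each). Their densities, 39.1 and 44.7 peaks per 100 kb, were also above the 21.7 of Zfp genes in 6 of 6 samples (exact sign-flip p = 0.03125, adjusted 0.0547). Both families are small, with a last coding exon peak in any sample in 13 of 31 and 9 of 18 genes. The tests cover the spread between libraries and cannot show whether the families differ beyond the spread between genes. Among genes with at least 5 fingers in the last coding exon, 29.3% ± 4.45 of 234 Zfp genes and 20.2% ± 3.61 of 148 genes with other names had the peak (difference 9.12 points, 6 of 6 samples, exact sign-flip p = 0.03125, adjusted 0.0437), at 22.0 and 16.6 peaks per 100 kb (adjusted exact sign-flip p = 0.0547) and median CpG densities of 1.66 and 1.33.

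Whether TGF-β1 changed methylation at the Zfp genes was asked in 3 ways. The number of peaks at Zfp genes was 581, 678 and 737 without and 709, 731 and 769 with TGF-β1, or 665 ± 78.8 against 736 ± 30.4 (SD, n = 3), and the groups overlapped (exact permutation p = 0.3, adjusted 0.6; 3 samples against 3 cannot give less than 0.1). The difference of 71 peaks was 28.8 without control replicate 1 and 107 without control replicate 3, and per 1000000 reads it turned to -7.05 peaks. The share of all peaks that lay at Zfp genes was 0.732% ± 0.0187 in the control and 0.718% ± 0.0178 in the TGF-β1 samples (exact permutation p = 0.4, adjusted 0.6). This difference of -0.0142 points was -0.0239 without control replicate 1, -0.0052 without control replicate 2 and -0.0039 without TGF-β1 replicate 1. The share of members with a last coding exon peak was 22.2% ± 5.04 against 25% ± 1.81 (exact permutation p = 0.7, adjusted 0.7), and without control replicate 1, which had the lowest share in other genes too (5.02% against 7.19% to 9.18%), the difference was 0. It was 4.91 points without control replicate 3.

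The second way was the height of the 286 Zfp regions called in all 6 samples, fitted together with all 41744 such regions on the log2 of the pileup after subtracting the sample median. None passed an adjusted p of 0.05 by limma, and none did among all regions (0%). At an unadjusted p below 0.05 there were 9, of which 2 were higher and 7 lower after TGF-β1. They made up 0.699% and 2.45% of the Zfp regions, where the background over all regions was 1.96% higher and 2.22% lower. The median log2 difference was -0.04 over the Zfp regions and -0.0047 over all regions. Scaled by reads instead, the count was 22 (7.69%), all lower, where 6.23% of all regions were called and 5.72% were lower. With regions called in at least 3 samples it was 30 of 740 (4.05%), of which 20 were higher and 10 lower, against 4.05% of all such regions. Over all such regions 2.60% were higher and 1.45% lower. In that fit a sample without a call was given the lowest pileup of its called peaks. Without control replicate 1, 2 or 3 it was 18, 19 or 14, or 4.92%, 6.01% and 4.68% of the Zfp regions against 6.15%, 4.44% and 5.55% of all regions.

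The lowest unadjusted p among the lower regions was at an intronic region of Zfp292, chr4:34822428-34822868, with pileups of 21, 19 and 17 in the control and 18, 11 and 13 in the TGF-β1 samples, which overlapped (log2 difference -0.69 ± 0.22, SE, limma unadjusted p = 0.00391, adjusted 0.999). An intronic region of Zfp407, chr18:84430220-84430626, had 30, 30 and 29 against 23, 23 and 22 without overlap (-0.61 ± 0.20, adjusted p = 0.999). Zfp157 had 22, 20 and 33 against 18, 19 and 20, and an intronic region of Zfp618 had 15, 16 and 18 against 11, 14 and 15. The values of these touched or overlapped. Among the higher regions, an intronic region of Zfp536, chr7:38333914-38334443, had 19, 27 and 35 against 45, 35 and 47 (0.46 ± 0.20, limma adjusted p = 0.999), meeting at 35, and a coding exon of Zfp608 had 17, 29 and 32 against 42, 36 and 44 without overlap. Regions of Zfp943 and Zfp618, with log2 differences of 0.43 and 0.40, came next and were not below an unadjusted p of 0.05. At Zfp536, Zfp608, Zfp943 and this Zfp618 region control replicate 1 had the lowest of the 6 values. Without it the log2 differences of Zfp536, Zfp608 and Zfp943 were 0.29, 0.25 and 0.13, and without control replicate 2 that of Zfp943 was 0.71. Of the 44 last coding exon regions none had an unadjusted p below 0.05, and their log2 differences ran from -0.41 to 0.40 with a median of -0.03.

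**Figure D5:**
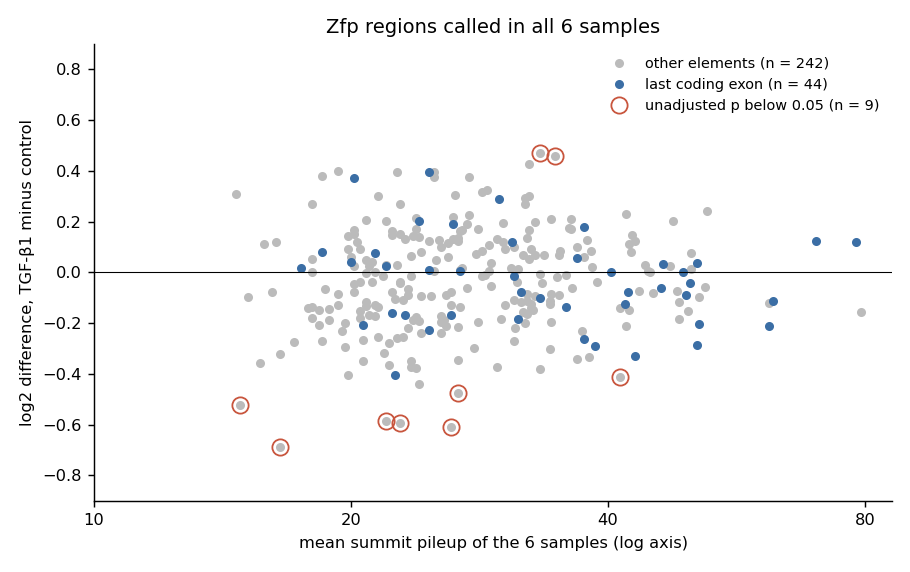
Log2 difference of the summit pileup, TGF-β1 minus control, against the mean pileup of the 6 samples (log axis), for the 286 Zfp regions called in all 6 samples. Last coding exon regions are blue (n = 44), other elements grey (n = 242), and red rings mark the 9 regions with an unadjusted p below 0.05, none of which is in a last coding exon.

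The last way was presence. Called in all 3 TGF-β1 samples and in no control sample were 12 Zfp regions, 1.0% of 1199, where the background over all regions was 0.948%. Called in all 3 control samples and in no TGF-β1 sample were 2, or 0.167%, with a background of 0.233%. Both counts were therefore near their background, and the TGF-β1 samples were the deeper ones, whose part in the counts was not tested. Of the 12, 9 were intronic, 2 were in a last coding exon and 1 was upstream, and their pileups ran from 15 to 35. The highest were introns of Zfp516 (35, 31 and 28), Zfp652 (27, 22 and 32) and Zfp957 (26, 21 and 30) and the last coding exon of Zfp691, chr4:118843281-118843621 (23, 19 and 25). Zfp691 held another last coding exon region, which was called in 5 samples with pileups of 30 and 46 in control replicates 2 and 3 and 38, 29 and 35 after TGF-β1. The 2 regions called only in the control samples were in an intron of Zfp423 (17, 14 and 21) and at the promoter of Zfp259 (13, 19 and 19). A region without a call is not one without reads, since the lowest pileup of any called peak was 8 to 10 in the 6 samples. With 1 library fewer to satisfy, the 12 became 17, 22 or 28 without control replicate 1, 2 or 3 and 34, 29 or 21 without TGF-β1 replicate 1, 2 or 3, and the 2 became 14, 12 or 6 and 7, 6 or 12. The shares over all regions were not counted with a library left out, so these counts have no background to be read against.

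Members with well known roles were looked at by name. Zfp57, which keeps the methylation of imprinted genes through early development, had a last coding exon region at chr17:37146498-37147202 called in all 6 samples, with pileups of 15, 16 and 17 in the control and 22, 22 and 29 in the TGF-β1 samples. These did not overlap, and the log2 difference was 0.37 ± 0.21 (SE, limma unadjusted p = 0.0878, adjusted 0.999). Zfp445, which acts with Zfp57 at imprints, had 2 last coding exon regions, called in 2 and 1 samples, all treated with TGF-β1. Zfp809, known for silencing retroviral sequences in embryonic cells, and Zfp568, a repressor of a placental Igf2 transcript, had only intronic regions. Zfp148, a GC-box binding factor, had a last coding exon region called in 4 samples, with pileups of 16 and 17 in control replicates 1 and 2 and 21 and 23 in TGF-β1 replicates 1 and 3.

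Zfp36, the mRNA decay factor tristetraprolin, whose fingers are of another type, had only an upstream and a downstream region, called in 1 and 3 samples. Zfp281 had a single region, upstream of the gene and called in all 6 samples with 21, 22 and 27 against 35, 19 and 20. The co-repressor Zfp703 had regions in an untranslated exon and downstream of the gene. At Zfp217 the regions were in inner coding exons, or inside the gene but upstream of the representative transcript. The latter, counted as intronic, had summits at -4633, -8971 and -11280 bp from the start of that transcript. Zfp423 and Zfp521, large regulators of progenitor cells, had last coding exons of only 27 and 30 bp, without a finger. So short an exon could hardly hold a summit. Both genes had regions through their introns and inner coding exons and none in the last coding exon. The strongest of Zfp423 that was called in all 6 samples, an intronic one at chr8:90230993-90231498, had pileups of 17, 58 and 70 in the control and 64, 53 and 38 in the TGF-β1 samples, with control replicate 1 far below the others. Of the 95 regions of these 11 members, 15 were called in all 6 samples and were in the limma fit of such regions. They lay at Zfp57, Zfp809, Zfp148, Zfp281, Zfp423 and Zfp521, and 0 passed the adjusted test.

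Genes of the silencing machinery that KRAB zinc finger proteins recruit, and of the DNA methylation machinery, were taken as a separate list of 11 (Trim28, Setdb1, Atf7ip, Cbx1, Cbx3, Cbx5, Dnmt1, Dnmt3a, Dnmt3b, Uhrf1 and Chd4). Of these, 10 had a region and 62 regions were found in all. None had a promoter peak, and last coding exon peaks were called in 1 sample at Atf7ip and in 2 at Dnmt3b. Over the other protein-coding genes, 9.83% had a promoter peak and 13.6% a last coding exon peak in at least 1 sample. Of the 14 regions called in all 6 samples, 1, at Dnmt3a, had an unadjusted limma p below 0.05, where the share over all regions was 4.18%, and 0 passed the adjusted test.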

How the data were processed

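Peak lists of 6 samples were used as deposited. The authors had aligned the MeDIP-Seq reads to mm9 with BWA, kept uniquely mapped reads without duplicates, and called peaks in each sample separately with MACS2 2.1.0.20150731 at an FDR of 0.01 without an input library. The deposited columns used were the position, the summit pileup (signal: extended reads over the summit, not scaled to depth), the fold enrichment (a ratio to the local background) and the −log10 q-value. The −log10 p-value deposited by the authors was not used. Reads per sample are those the file headers state, and no read counts per gene were given, so the count model of the study could not be applied.

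Gene elements were taken from the GENCODE vM1 transcript with the longest coding sequence. Summits inside the gene but outside that transcript, and not in its promoter, were counted as intronic. Fingers and KRAB boxes were found by pattern in the translated sequence. Peaks were placed by summit, joined at 1 bp overlap (checked with bedtools 2.31.1), and differences between elements or gene classes were tested with exact sign-flip tests over samples, between treatments with exact permutation tests. Region heights were fitted with limma 3.58.1 (R 4.3.3) on log2 pileup, with no pseudocount, Benjamini-Hochberg adjusted over 41744 regions. The procedure was tested on simulated data. A depth of 9407103 to 13291419 reads leaves a median summit pileup of 26.5 extended reads in regions called in all 6 samples, which limits the precision.

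The members and lists were chosen with earlier results of these data known. Named are the 8 strongest last coding exon and up to 6 strongest promoter regions called in all 6 samples, the 4 lowest p in each direction, the 4 highest regions called in 1 group only, the 5 members with the most regions, the 3 largest clusters, Zfp52, and 11 members with known roles. Other genes named were chosen after their values were seen. The alternatives are listed in the closing section.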

Additional observations from a re-analysis of the deposited data

How the results depend on the processing

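Larger shares of last coding exon than promoter peaks, and of Zfp than other genes with a last coding exon peak, kept their direction and their p under a stricter q-value or fold enrichment and placement by overlap. Per 100 kb of exon the differences of Zfp against other genes, clustered against single and KRAB match against no match were -0.372, -0.871 and -0.403 peaks, and in exons of at least 1 kb they were -2.23, -1.73 and -2.87 points. None of these 6 was past 0.05, and both settings were built to take out exon length. Promoter peaks of Zfp against other genes differed by -0.0904 points over the 2 kb upstream and by 0.249 with any transcript's start. Cluster gaps of at most 500 kb gave 0.0504 points between clustered and single genes. A KRAB pattern starting with F or Y gave 2.56 points. It was chosen after seeing the data, as were the limits to members with 50% unique words (22.0 points, last coding exon against promoter) and to 5 or more fingers (25 points). Peaks at Zfp genes per 1000000 reads differed by -7.05 between the groups. The cause of the others was not tested.

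Leaving out each replicate in turn, the 5 differences between elements or classes ran from 19.1 to 21.1, 15.5 to 16.8, -1.59 to -1.14, 4.16 to 5.12 and 6.09 to 7.20 points in the order of the report, each at the smallest exact permutation p that 5 samples allow, 0.0625. The TGF-β1 difference in the last coding exon share ran from 0 to 4.91 points. Unadjusted limma calls ran from 10 to 19, and were 22 on pileup per 1000000 reads and 30 with regions called in at least 3 samples. Across these fits 3.26% to 7.69% of the Zfp regions and 3.40% to 6.23% of all regions were called, while 0 passed the adjusted test in any setting. Regions called only after TGF-β1 ran from 17 to 34 and only in the control from 6 to 14, where fewer samples had to agree, and the latter were 4 at a fold enrichment of at least 5. The shares over all regions were not counted in these settings. The log2 differences of the 8 regions named by their p kept their sign in all 11 alternative fits. Those of Zfp536, Zfp608 and Zfp943 moved by over 1.5 times without control replicate 1, that of Zfp943 also without control replicate 2, and that of Zfp407 was -0.33 on fold enrichment.

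The labels do not say whether samples with the same replicate number were paired. The correlations between the deviations of same-numbered samples were -0.0464, 0.0432 and -0.13, which cannot show that they were not. With a replicate block limma gave 9 unadjusted calls and 0 adjusted ones, and over 3 pairs the exact sign-flip tests, which cannot give less than 0.25, gave p = 0.25 for the peaks at Zfp genes (71 more, higher in 3 of 3 pairs), 0.25 for their share (-0.0142, lower in 3 of 3) and 0.75 for the last coding exon share (2.78 points), so they cannot show whether the groups differ. Peak calls depend on depth, which was higher in every TGF-β1 sample, and the low pileups leave a median SE of 0.21 on the log2 scale.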
